A study of Homo sapiens with 22 samples.

Results

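The replication-dependent histone genes of HT1080 cells were examined as a family. Members were chosen by name alone: every gene whose symbol starts with HIST1, HIST2 or HIST3 followed by a histone class from H1 to H4, or carries the newer form of such a name, leaving out symbols that end in P or PS with digits. This rule found 74 of the 60675 genes in the table. They comprised 6 H1, 17 H2A, 23 H2B, 14 H3 and 14 H4 genes. HIST1 on chromosome 6 held 55 of them, and HIST2 and HIST3 on chromosome 1 held 15 and 4. The annotation lists 69 as protein coding and 5 H2B members (HIST2H2BA, HIST2H2BB, HIST2H2BC, HIST2H2BD and HIST3H2BA) as pseudogenes. The rule also took in HIST1H1T, HIST1H2AA, HIST1H2BA and HIST3H3, which are known as testis histones.

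The study inactivated single catalytic domains of lysine deacetylases in HT1080, a human fibrosarcoma cell line, and sequenced RNA from 22 libraries in 6 groups. WT cells (4 libraries) were neither edited nor treated. KDAC6H216A and KDAC6H611A (4 libraries each) carry a histidine-to-alanine change in 1 or the other of the catalytic domains of KDAC6 (HDAC6), and KDAC8H143A (4 libraries) carries such a change in KDAC8 (HDAC8) together with 1 extra base in an intron. The edits were made with CRISPR/Cas9 in cells then grown from single colonies, and KDAC6H216A is a pool of 3 independent lines. Tubastatin A (3 libraries, 1 µM) and PCI-34051 (3 libraries, 5 µM) are unedited cells given an inhibitor directed at KDAC6 and at KDAC8, respectively, for 2 days, and the untreated WT libraries are their controls. All 22 libraries were depleted of rRNA rather than selected for poly(A).

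Replication-dependent histone genes supply the H1, H2A, H2B, H3 and H4 proteins that package newly made DNA, and their mRNA accumulates in S phase. Their transcription depends on NPAT, which cyclin E and CDK2 activate at histone locus bodies. Their mRNA usually has no introns and ends in a stem-loop, bound by SLBP, in place of a poly(A) tail, and the U7 snRNP guides its cleavage. Some of these genes also make longer, polyadenylated transcripts, and 15 of the 74 members have a spliced transcript in the annotation.

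The stem-loop is shown because it sets these genes apart from nearly all others. Within 100 bases after the stop codon, on the sense strand, the 16-letter pattern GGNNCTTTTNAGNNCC was found in 66 of the 69 coding members, against 3 of 19881 other coding genes (0.0151%; H2AFX, HIST4H4 and RP5-998N21.10). HIST1H3E, HIST1H2BI and HIST1H4L had no match to these letters in this window. There were 7 versions, and the 4 that more than 1 member carries are given 5′ to 3′ with the loop in capitals, read from GRCh38.
Stem-loop of 40 members: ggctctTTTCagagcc
Stem-loop of 10 members: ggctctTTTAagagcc
Stem-loop of 9 members: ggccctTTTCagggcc
Stem-loop of 4 members: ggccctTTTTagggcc

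H2A and H2B genes often lie head to head and share the stretch between their starts. There were 14 such pairs with starts within 1000 bases of each other. The shared stretches of 4 pairs are shown because the levels of their H2A and H2B partners are compared further on. Capitals mark the octamer ATTTGCAT, CCAAT and TATAAA on either strand. The sequences run 5′ to 3′ on the plus strand of GRCh38.
HIST1H2BK and HIST1H2AH, chr6:27146856-27147105: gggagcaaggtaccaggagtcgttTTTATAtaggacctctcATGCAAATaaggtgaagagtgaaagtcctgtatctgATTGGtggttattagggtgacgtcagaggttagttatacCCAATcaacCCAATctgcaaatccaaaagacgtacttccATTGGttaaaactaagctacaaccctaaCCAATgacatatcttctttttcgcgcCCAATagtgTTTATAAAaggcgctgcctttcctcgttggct
HIST1H2BJ and HIST1H2AG, chr6:27132796-27133042: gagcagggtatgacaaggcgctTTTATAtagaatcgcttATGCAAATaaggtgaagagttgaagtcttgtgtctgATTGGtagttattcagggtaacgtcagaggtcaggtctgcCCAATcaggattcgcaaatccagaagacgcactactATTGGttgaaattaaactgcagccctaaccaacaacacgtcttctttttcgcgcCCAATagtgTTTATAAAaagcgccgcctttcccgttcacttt
HIST2H2BE and HIST2H2AC, chr1:149886683-149886917: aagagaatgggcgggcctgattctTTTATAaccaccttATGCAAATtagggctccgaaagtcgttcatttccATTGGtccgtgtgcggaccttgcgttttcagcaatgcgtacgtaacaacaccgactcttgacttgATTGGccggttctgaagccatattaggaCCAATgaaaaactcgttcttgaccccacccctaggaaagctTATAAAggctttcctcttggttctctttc
HIST1H2BL and HIST1H2AI, chr6:27807930-27808172: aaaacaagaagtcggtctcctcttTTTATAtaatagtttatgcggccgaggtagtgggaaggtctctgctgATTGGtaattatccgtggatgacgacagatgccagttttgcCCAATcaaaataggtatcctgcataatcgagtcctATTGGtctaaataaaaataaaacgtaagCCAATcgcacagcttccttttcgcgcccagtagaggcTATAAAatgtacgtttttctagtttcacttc

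The first and second of these stretches were identical in 202 of 253 aligned columns (79.8%). In 300-base RefSeq promoter windows, which were matched for 68 members, the motifs were read on either strand. The octamer stood in 15 of 20 H2B and 11 of 16 H2A promoters, in 1 of 14 H3 promoters and in none of the 6 H1 or 12 H4 promoters, against 1.77% of all promoters. Head-to-head H2A and H2B genes share a stretch, so the same octamer can count for both classes. CCAAT stood in every H1, H2A, H2B and H3 window and in 3 of 12 H4 windows, against 34.6% of all promoters. TATAAA stood in 45 of the 68, against 11.5% of all promoters.

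Library totals ran from 5248960 to 29862658 expected counts. Mitochondrial rRNA took 20.8% to 23.9% of counts in the WT libraries. It took 13.15% to 15.07% in 3 libraries of KDAC6H216A and 20.98% to 37.98% in 3 libraries of KDAC6H611A. Its share was 0.195% in KDAC6H216A replicate 1, 0.173% in KDAC6H611A replicate 4 and at most 0.0259% in the KDAC8H143A and inhibitor libraries. In a comparison with WT, this feature and the greater depth of the inhibitor libraries cannot be told apart from KDAC8H143A, Tubastatin A or PCI-34051. The members are also short and rich in GC, with a median length of 499.5 bases and 56.6% GC, against 3497 bases and 47.9% over the genes tested between KDAC8H143A and WT. Values corrected for GC content and length are therefore given where they alter a result. Mesenchymal markers were present (group means of 30.0 to 3973 CPM over 8 genes, where CPM are counts scaled to a common library total), while 4 leukocyte markers stayed at or under 0.278 CPM and 4 endothelial markers at or under 1.34 CPM. Of the epithelial markers, EPCAM, CDH1 and ESRP1 stayed at or under 0.222 CPM and CLDN4 lay between 3.24 and 7.76 CPM.

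Most of the family was read, but long stretches of it were not. Of 74 members, 53 had over 3 counts in at least 1 library, and 21 had at most 3 counts in all 22, among them 11 listed at 0 throughout. A count of 0 allows up to 0.0953 to 0.620 CPM in a library (3 counts of the scaled total, counting error only). Levels between genes are compared as CPM per kb of the longest annotated transcript in WT. The order of genes depends on that length, since members with a long annotated transcript are placed lower. Examples are HIST1H2BC (2548 bases, 75.9 CPM per kb) and HIST2H4A (1547 bases). The H1 genes were led by HIST1H1E (H1-4) at 572 and HIST1H1C (H1-2) at 524, with HIST1H1T at 0.365. The H2A genes were led by HIST2H2AA3 at 522, HIST2H2AA4 at 396 and HIST1H2AG at 364, and the H2B genes by HIST1H2BK at 344, HIST1H2BD at 247 and HIST1H2BJ at 138. Among H3 genes HIST1H3B stood at 384, HIST1H3C at 382, HIST2H3A at 328 and HIST2H3C at 325. Among H4 genes HIST1H4B stood at 241, HIST2H4A at 221, HIST1H4J at 221 and HIST1H4E at 211. HIST2H3A and HIST2H3C had equal counts in 22 of 22 libraries, so their reads could not be told apart, and the split between the near-identical copies HIST2H2AA3 and HIST2H2AA4, and HIST2H4A and HIST2H4B, is uncertain.

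The members with almost no reads were not scattered. A run of 8, HIST1H3E, HIST1H1D, HIST1H4F, HIST1H4G, HIST1H3F, HIST1H2BH, HIST1H3G and HIST1H2BI, lay at chr6:26224199-26273412, and a run of 7, HIST1H2AL, HIST1H1B, HIST1H3I, HIST1H4L, HIST1H3J, HIST1H2AM and HIST1H2BO, closed the cluster at chr6:27865317-27893891. HIST1H1B and HIST1H1D encode somatic linker histones and HIST1H1A reached 6 counts at most, so the H1 values given here rest almost wholly on HIST1H1C and HIST1H1E. HIST1H2AA and HIST1H2BA at the start of the cluster, HIST1H4D, HIST1H2AD, HIST1H4K and HIST2H3D were also at or under 3 counts. HIST1H2AD was listed at 0 in all libraries, while RP1-34B20.21, a gene that overlaps it, averaged 14.3 CPM. In all, 10 members overlap another gene of at least 1 CPM, and how reads were shared between such genes was not tested.

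**Figure D1:**
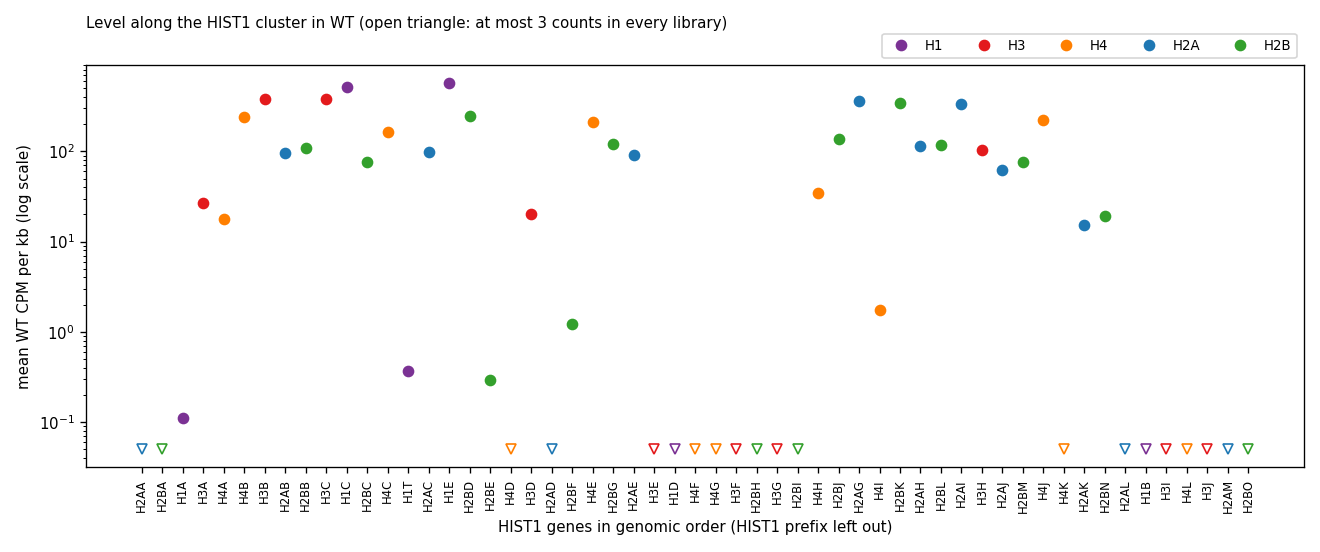
Mean WT level of each HIST1 gene in CPM per kb of the longest annotated transcript (log axis) in genomic order, coloured by class. Open triangles at the foot of the axis mark genes with at most 3 counts in every library. A run of 8 genes in the middle and a run of 7 at the right end had almost no reads, while other genes of the cluster reached 572 CPM per kb.

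Summed over all members, histone RNA made up 4960 ± 561 CPM in WT (SD, n = 4; 4137 to 5391), after scaling by the trimmed mean of M values (TMM). KDAC6H216A stood at 5477 ± 1213 (3684 to 6240, n = 4) and overlapped WT. KDAC6H611A stood at 2832 ± 546 (2114 to 3402, n = 4) and KDAC8H143A at 3417 ± 316 (2998 to 3719, n = 4). Tubastatin A stood at 3807 ± 119 (3735 to 3944, n = 3) and PCI-34051 at 3078 ± 182 (2874 to 3224, n = 3). These last 4 groups all lay below the lowest WT library, at 57.1%, 68.9%, 76.8% and 62.1% of the WT mean. Scaled by total count alone, KDAC6H611A (1588 to 3994), KDAC8H143A (3158 to 4481) and Tubastatin A (3926 to 4213) overlapped WT (3817 to 4808), and PCI-34051 (3173 to 3539) stayed below it. Sums are given without a test, since long and abundant genes weigh most in them.

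The classes did not share 1 pattern across groups. In KDAC6H611A every class lay below WT, from 53.8% of the WT mean for H3 to 63.3% for H1. In KDAC8H143A the classes were spread out: H2B stood at 40.9%, H1 at 43%, H4 at 67.7%, H2A at 84.3% and H3 at 110.1% of WT, and H2A and H3 overlapped WT. With the inhibitors H2B and H1 were again lowest, at 60.6% and 60.6% of WT for Tubastatin A and 50.2% and 48.5% for PCI-34051. H4 was highest, at 93.4% and 78.8%, and overlapped WT with both. As a share of all histone CPM, H2B stood at 24.1 ± 0.474% in WT and 14.2 ± 2.31% in KDAC8H143A, and H3 at 17.6 ± 0.559% and 28.4 ± 2.44%. The ratio of summed H3 to summed H2B CPM was 0.693 to 0.770 in WT, 0.728 to 0.761 in KDAC6H216A and 0.597 to 0.962 in KDAC6H611A. It was 1.42 to 2.42 in KDAC8H143A, and 0.994 to 1.05 and 0.927 to 1.00 under Tubastatin A and PCI-34051, above every WT library in these 3 groups. These sums are not corrected for GC content, whose median was 58.9% in H3 and 54.8% in H2B members. In KDAC8H143A the uncorrected median log2 fold changes were 0.19 for H3 and −1.09 for H2B genes. Corrected for GC content and length, both medians were below 0 and lay much closer together, as given further on.

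**Figure D2:**
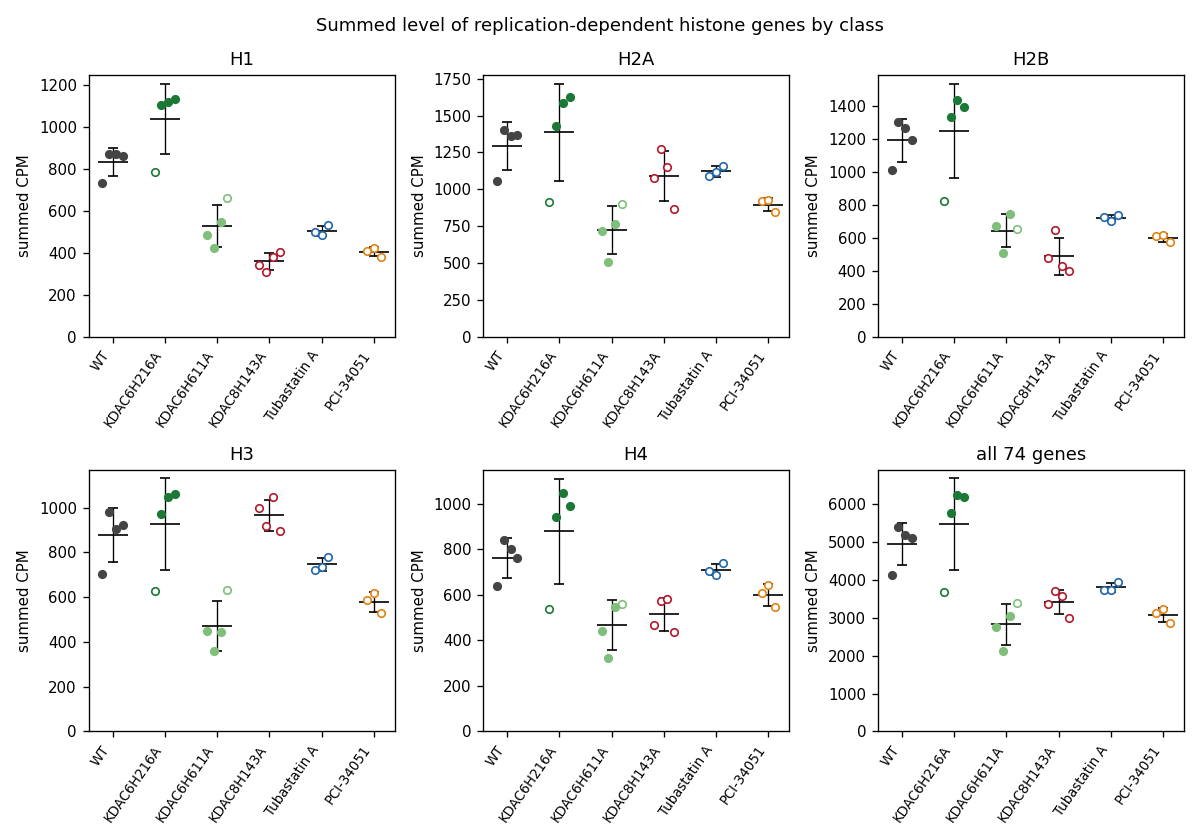
Summed CPM of each histone class and of all 74 genes, 1 point per library, with the group mean (bar) and SD (whiskers); open points are libraries in which mitochondrial rRNA took under 1% of counts. KDAC6H611A lay below WT in every panel, whereas KDAC8H143A was at 43% of the WT mean for H1 and at 110.1% for H3. The sums are not corrected for GC content and length.

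By cluster, HIST1 stood at 57.1% of the WT mean in KDAC6H611A and 60.5% in KDAC8H143A. It stood at 72.1% with Tubastatin A and 57.7% with PCI-34051, in all 4 groups below every WT library. HIST2 stood at 56.4% in KDAC6H611A and 70.2% with PCI-34051, below WT, and at 86.5% in KDAC8H143A and 85.5% with Tubastatin A, where it overlapped WT. HIST3 stood at 38.1 to 50.2 CPM in WT and 24 to 39.2 CPM in KDAC6H611A (79.2% of the WT mean), which overlapped. It summed to 59.4 to 66 CPM in KDAC8H143A, and under Tubastatin A and PCI-34051 to 61.5 to 69.2 and 53.8 to 63 CPM, above every WT library.

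In each comparison of an edited line with WT, differences between colonies cannot be told apart from the mutation. KDAC6H216A was compared with WT first. Among 45 members tested none passed an adjusted p of 0.01 (edgeR quasi-likelihood test, Benjamini-Hochberg adjustment over all genes tested), with 4 under an unadjusted p of 0.05 and 1, HIST1H4I, called by DESeq2. Of all genes, 0.834% were called, 0.214% higher and 0.621% lower. The median log2 fold change of the members was 0.05, with 27 estimates above and 18 below 0. KDAC6H216A replicate 1, which is low in mitochondrial rRNA, had the lowest sum of its group in every class, and the part of that feature was not tested. Without it the other 3 libraries summed to 5784 to 6240 CPM, above every WT library, and 11 of 45 members were called, 10 higher and 1 lower. Of all 14638 genes tested, 3813 were called, 1786 higher and 2027 lower. The share called in either direction was much like that of the members, while by direction most called members were higher. The 10 higher ones were HIST1H1C, HIST1H1E, HIST1H2AH, HIST3H2A, HIST1H3A, HIST1H4B, HIST1H4C, HIST1H4H, HIST1H4I and HIST1H4J, with log2 fold changes from 0.24 for HIST1H1E to 1.87 for HIST1H4I. HIST2H2AA3 was lower, at −0.23.

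HIST1H4I (H4C9) was the 1 member whose KDAC6H216A and WT libraries did not overlap, against 8.57% of all genes tested (5.37% higher and 3.2% lower). It stood at 5.38, 2.26, 2.99 and 3.09 CPM there and at 0.826, 0.872, 0.504 and 0.578 CPM in WT, where it had at most 7 counts. The log2 difference of 2.22 ± 0.41 (SE) had an edgeR adjusted p of 0.0239. In KDAC8H143A it was at 7.42, 7.16, 6.75 and 3.18 CPM, 3.19 ± 0.36 above WT on the log2 scale with an edgeR adjusted p of 1.59e-05. KDAC6H611A had it at 0.263 to 1.51 CPM and it was not tested there.

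KDAC6H611A had less histone RNA of every class. Of 44 members tested, 30 fell and none rose, against 12.3% of all genes called in either direction, 6.08% higher and 6.24% lower. The median log2 fold change of the members was −0.80, against 0.03 over all genes, and 42 of the 44 estimates were negative. The libraries of 31 of the 44 did not overlap WT, all lower, against 25.3% of all genes tested (11.6% higher and 13.7% lower). The fall took in 2 of 2 H1 genes, 8 of 13 H2A, 9 of 14 H2B, 6 of 7 H3 and 5 of 8 H4 genes, with class medians from −0.64 for H1 to −0.90 for H3. By cluster it took in 24 of 30 HIST1, 6 of 12 HIST2 and 0 of 2 HIST3 genes.

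HIST1H2AE (H2AC8) had the largest fall. Its WT libraries stood at 34.5, 53.5, 53.5 and 48.1 CPM and its KDAC6H611A libraries at 20.8, 14.3, 25.9 and 17.9 CPM, a log2 difference of −1.23 ± 0.16 (SE; edgeR adjusted p = 1.78e-04). HIST1H2BB (H2BC3) went from 47.9, 61.3, 54.1 and 50.01 CPM to 24.1, 15.3, 32.8 and 18.7 CPM, by −1.19 ± 0.18 (edgeR adjusted p = 4.34e-04). HIST1H4J (H4C11) went from 70.2, 94.5, 91.9 and 87.4 CPM to 39.2, 34, 48 and 38.8 CPM, by −1.08 ± 0.11 (edgeR adjusted p = 2.61e-05). In each of these genes every KDAC6H611A library lay below every WT library. The linker histone genes HIST1H1C and HIST1H1E changed by −0.66 ± 0.14 and −0.61 ± 0.12, and HIST1H3C by −0.91 ± 0.15. HIST2H4A was at 158 to 290.2 CPM against 278 to 378 CPM in WT, and its difference of −0.55 ± 0.15 did not pass (edgeR adjusted p = 0.0218).

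KDAC6H611A replicate 4, the library low in mitochondrial rRNA, had the highest histone sum of its group (3402 CPM), and without it the other 3 stood at 53.3% of WT and 31 members fell, beside 834 of all 14968 genes called lower. The count was 19 without WT replicate 2, 3 or 4 or without KDAC6H611A replicate 1. Calls over all genes were fewer as well: 580 of 15010 were lower without WT replicate 2 and 575 of 15003 without WT replicate 3, against 919 of 14725 with all libraries. In KDAC6H611A replicates 3, 1 and 2 the histone sum was 3051, 2760 and 2114 CPM, with mitochondrial rRNA at 20.98%, 24.53% and 37.98% of counts. The order was the same in WT, while in KDAC6H216A the library lowest in mitochondrial rRNA had the lowest sum. The part of this feature was not tested. Scaling by total count alone kept a median of −0.77 and called 8 members lower, beside 364 of all 14725 genes called lower. In bulk RNA, fewer cells in S phase and less histone mRNA in each such cell cannot be told apart. Of 37 S-phase genes such as MCM5 and PCNA, TYMS, CDCA7, RAD51AP1 and USP1 fell and none rose (median −0.22). Of 23 tested factors of histone mRNA synthesis and processing none passed (median −0.15).

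The KDAC6 mutants were also compared with each other, a comparison added after the data were seen. KDAC6H611A was lower than KDAC6H216A for 24 of 45 members and higher for none, with a median of −0.84, against 9.93% of all genes called, 4.61% higher and 5.31% lower. The libraries of 23 members did not overlap, all lower in KDAC6H611A, against 22.1% of all genes tested (9.67% higher and 12.4% lower). HIST1H2AE at −1.40 ± 0.21, HIST1H2BB at −1.35 ± 0.21 and HIST1H3A at −1.21 ± 0.19 were lowest among called members. Limited to the 6 libraries with mitochondrial rRNA it was lower for 34 of 45, with a median of −1.03, beside 1086 of all 15104 genes called lower. These libraries were not matched on this feature, at 13.15% to 15.07% of counts in KDAC6H216A and 20.98% to 37.98% in KDAC6H611A. The count was 7 without KDAC6H216A replicate 2 or 4, 9 without replicate 3 of that group, and 8, 14 and 11 without KDAC6H611A replicates 1, 3 and 4. Calls over all genes in these smaller fits are not given beside them, so a loss particular to the members cannot be read from these counts.

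In KDAC8H143A members went both ways, and most of the H2B genes fell. Of 46 members tested, 20 fell and 8 rose, a called share near the 58.5% of all genes called in that comparison (26.9% lower and 31.6% higher). The median was −0.31, against 0.08 over all genes, and −0.52 without KDAC8H143A replicate 2. H2B genes made up 11 of the 20 that fell, out of 15 tested, and both H1 genes fell. HIST2H2AA4, HIST2H2AC, HIST3H2A, HIST2H2BC, HIST2H2BD, HIST1H3C, HIST1H4A and HIST1H4I rose, of which HIST1H3C, HIST1H4A, HIST2H2AC and HIST2H2AA4 were below 0 once corrected for GC content and length (−0.17, −0.13, −0.11 and −0.29). HIST1 genes had a median of −0.93 with 16 of 31 lower and 3 higher, whereas HIST2 had 4 lower and 4 higher of 13.

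HIST1H2BK (H2BC12) had the largest fall. It stood at 144, 188, 177 and 173 CPM in the WT libraries and at 36.9, 44.5, 40.1 and 39.3 CPM in KDAC8H143A, a log2 difference of −2.03 ± 0.11 (SE; edgeR adjusted p = 1.31e-07). HIST1H2BB went from 47.9 to 61.3 CPM to 14.4, 21.1, 11.2 and 6.85 CPM, by −1.93 ± 0.26 (edgeR adjusted p = 4.35e-05). HIST1H4J went from 70.2 to 94.5 CPM to 23.7, 26.5, 21.6 and 16.4 CPM, by −1.91 ± 0.15 (edgeR adjusted p = 1.30e-06). No KDAC8H143A library of these genes reached the WT range, and the H1 genes HIST1H1C and HIST1H1E changed by −1.24 ± 0.10 and −1.11 ± 0.12. In the opposite direction, HIST1H3C (H3C3) rose from 144, 208, 197 and 194 CPM to 329.5, 249.6, 329.7 and 306 CPM, by 0.76 ± 0.13 (edgeR adjusted p = 3.08e-04). HIST3H2A (H2AC25) rose from 15.5 to 22.3 CPM to 39.8 to 44.6 CPM, by 1.25 ± 0.13, and HIST2H2AC (H2AC20) from 39.2 to 54.5 CPM to 60.9 to 96.5 CPM, by 0.83 ± 0.15.

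The copies HIST2H2AA3 and HIST2H2AA4 moved apart, by −1.96 ± 0.17 and 0.88 ± 0.20. HIST2H2AA3 stood at 252 to 311 CPM in WT and 48.9 to 84.6 CPM in KDAC8H143A, and HIST2H2AA4 at 141 to 286 and 301 to 484 CPM. Summed as 1 gene they differed from WT by −0.09 ± 0.13 (edgeR adjusted p = 0.566). The stretches that start these copies were identical in 288 of 290 columns, and the pseudogenes on their other sides were read as well. HIST2H2BC was at 7.23 to 14.6 CPM in KDAC8H143A, while in WT it was listed at 0 in 3 libraries and at 0.542 CPM in the other one. HIST2H2BD was at 6.70 to 18 CPM against 1.65 to 3.24 CPM in WT, a log2 difference of 2.43 ± 0.36 (edgeR adjusted p = 1.06e-04). HIST2H2BC overlaps RP11-196G18.22, a pseudogene at a mean of 18.7 CPM.

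Correction for GC content and length took the KDAC8H143A median to −0.98, with 31 members lower and 5 higher. Of all 16101 genes, it called 3340 lower and 4357 higher. Class medians were then −2.05 for H1, −1.13 for H2B, −0.93 for H3, −0.83 for H2A and −0.59 for H4. HIST2H3A and HIST2H3C went from 0.19 to −1.23 and −1.25, while HIST3H2A stood at 0.98, HIST1H2BK at −2.96 and HIST1H4J at −2.93. Scaling by total count alone gave a median of −0.01, where the median of all genes moved to 0.36.

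Against WT, Tubastatin A and PCI-34051 gave estimates for the family that depended on the processing. With Tubastatin A, 26 of 45 members fell and 7 rose (57.9% of all genes called, 28.6% lower and 29.3% higher), with a median of −0.39. With PCI-34051, 34 of 45 fell and 3 rose (51.1% of all genes called, 25.6% lower and 25.5% higher), with a median of −0.65. After correction for GC content and length the median went to 0.36 with Tubastatin A, where 22 rose and 8 fell, and to 0.02 with PCI-34051, where 11 rose and 17 fell. Of all 15246 genes tested with Tubastatin A, 4129 then rose and 4570 fell. Of all 15346 tested with PCI-34051, 3681 rose and 4217 fell. Under total count scaling the medians were −0.04 and −0.27, where those of all genes were 0.35 and 0.38. A fit over all 6 groups called 14 members with Tubastatin A, 2 of them higher, and 22 with PCI-34051, 1 of them higher. Of all 18480 genes, that fit called 2997 higher and 1610 lower with Tubastatin A and 2700 higher and 1641 lower with PCI-34051.

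**Figure D3:**
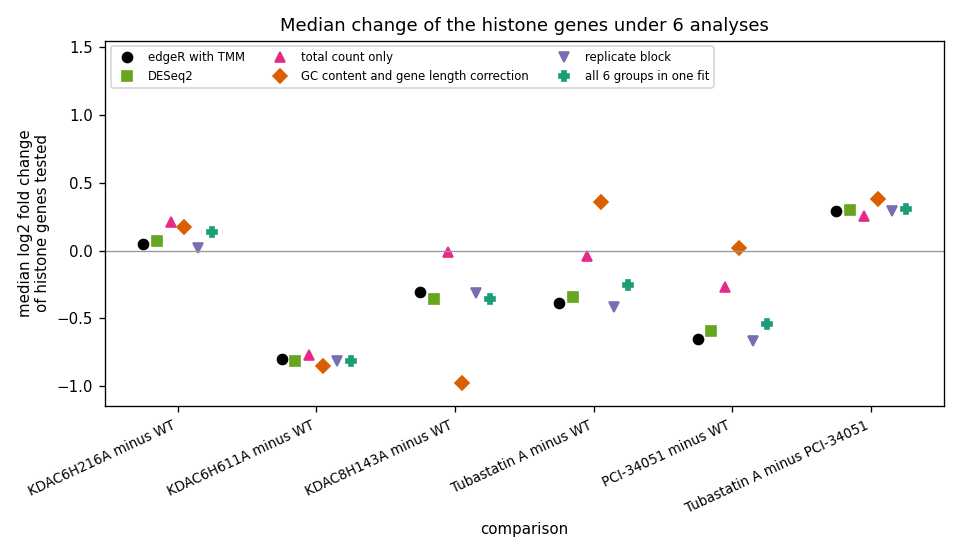
Median log2 fold change of the histone genes tested (y axis) in 6 comparisons (x axis) under 6 analyses (symbols), with a line at 0. KDAC6H611A against WT stayed between −0.85 and −0.77 in the 6 analyses drawn, while Tubastatin A against WT went from −0.42 to 0.36.

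Members that kept their direction under the GC and length correction and under total count scaling included HIST1H2BK, HIST1H2BM, HIST1H1E and HIST2H2BE. HIST1H2BK stood at 29.5, 28.7 and 31.2 CPM with Tubastatin A and at 20.6, 23.9 and 21.5 CPM with PCI-34051, against 144 to 188 CPM in WT. It changed by −2.63 ± 0.06 (SE; edgeR adjusted p = 7.31e-17) and −3.06 ± 0.07 (edgeR adjusted p = 1.61e-15), and by −1.72 and −2.15 when corrected for GC content and length. HIST1H2BM (H2BC14) fell from 31.8 to 42 CPM to 13.1 to 14.4 CPM with Tubastatin A and 9.80 to 10.8 CPM with PCI-34051, by −1.50 ± 0.08 and −1.91 ± 0.09, and by −0.54 and −0.94 when corrected. HIST1H1E fell from 404 to 469 CPM to 198 to 224 and 155 to 176 CPM, by −1.19 ± 0.05 and −1.53 ± 0.06, and by −0.66 and −1.05 when corrected. HIST2H2BE (H2BC21) changed by −1.07 ± 0.07 and −1.48 ± 0.06, and by −1.03 and −1.45 when corrected. In these genes no inhibitor library reached the WT range.

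HIST3H2A rose with both inhibitors, from 15.5 to 22.3 CPM to 31.1 to 32.7 CPM with Tubastatin A (0.67 ± 0.09) and 25.6 to 29.1 CPM with PCI-34051 (0.48 ± 0.10), and stood at 0.83 and 0.61 when corrected. HIST1H4H (H4C8) rose from 68.4 to 80.4 CPM to 108 to 122 CPM (0.50 ± 0.06) and 87.2 to 105 CPM (0.30 ± 0.07). HIST2H4B, at 9.74, 0, 0.696 and 2.95 CPM in WT, was at 19.99, 10.4 and 10.5 and 13.8, 20.3 and 13.3 CPM, 2.24 ± 0.48 and 2.45 ± 0.47 higher in the fit. Summed with its copy HIST2H4A it differed from WT by −0.25 ± 0.06 and −0.47 ± 0.07. HIST2H2AA3 changed by −1.30 ± 0.06 and −1.54 ± 0.09, and summed with HIST2H2AA4 by −0.33 ± 0.06 and −0.57 ± 0.07. HIST1H3C and HIST1H4B, lower in both uncorrected comparisons, stood at 0.57 and 0.74 with Tubastatin A when corrected.

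The inhibitors were then compared with each other, 3 libraries against 3 that were alike in depth and mitochondrial rRNA, at different doses (1 and 5 µM). Histone RNA was higher with Tubastatin A: 24 of 48 members were higher and none lower, against 5.65% of all genes called, 3.45% higher and 2.2% lower. The median was 0.29, against −0.01 over all genes, and 42 of 48 estimates were positive. The groups did not overlap for 36 members, all higher with Tubastatin A, against 31.6% of all genes in either direction and 17.9% higher. Calls came from every class, with 2 of 2 H1, 7 of 13 H2A, 8 of 17 H2B, 5 of 7 H3 and 2 of 9 H4 genes and class medians of 0.20 to 0.31. The correction for GC content and length gave 28 higher and none lower, with a median of 0.38. Of all 18409 genes, it called 592 higher and 427 lower. The count was 14 without Tubastatin A replicate 3, a fit whose calls over all genes are not given here. A fit over all 6 groups, which shares 1 estimate of the spread, called 0 members and 7 of all 18480 genes. It had 12 members under an unadjusted p of 0.05 and a median of 0.31. DESeq2 called 27 members higher, beside 787 of all 13841 genes called higher.

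HIST1H2AI (H2AC13) differed most between the inhibitors. It stood at 124, 124 and 128 CPM with Tubastatin A and at 89.8, 81.1 and 85.7 CPM with PCI-34051, a log2 difference of 0.53 ± 0.05 (SE; edgeR adjusted p = 5.10e-06). HIST1H2AH (H2AC12) stood at 38.8, 38 and 41.6 CPM against 31.1, 26.7 and 24.8 CPM (0.51 ± 0.07; edgeR adjusted p = 2.33e-04). HIST1H3C stood at 158, 157 and 159 CPM against 113, 113 and 115 CPM (0.46 ± 0.04; edgeR adjusted p = 8.36e-06). Every Tubastatin A library of these genes was above every PCI-34051 library. HIST1H1E and HIST1H1C were higher by 0.34 ± 0.06 and 0.29 ± 0.05. HIST1H4B, at 75.3 to 81.2 and 60.8 to 85.9 CPM, overlapped and differed by 0.04 ± 0.08.

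**Figure D4:**
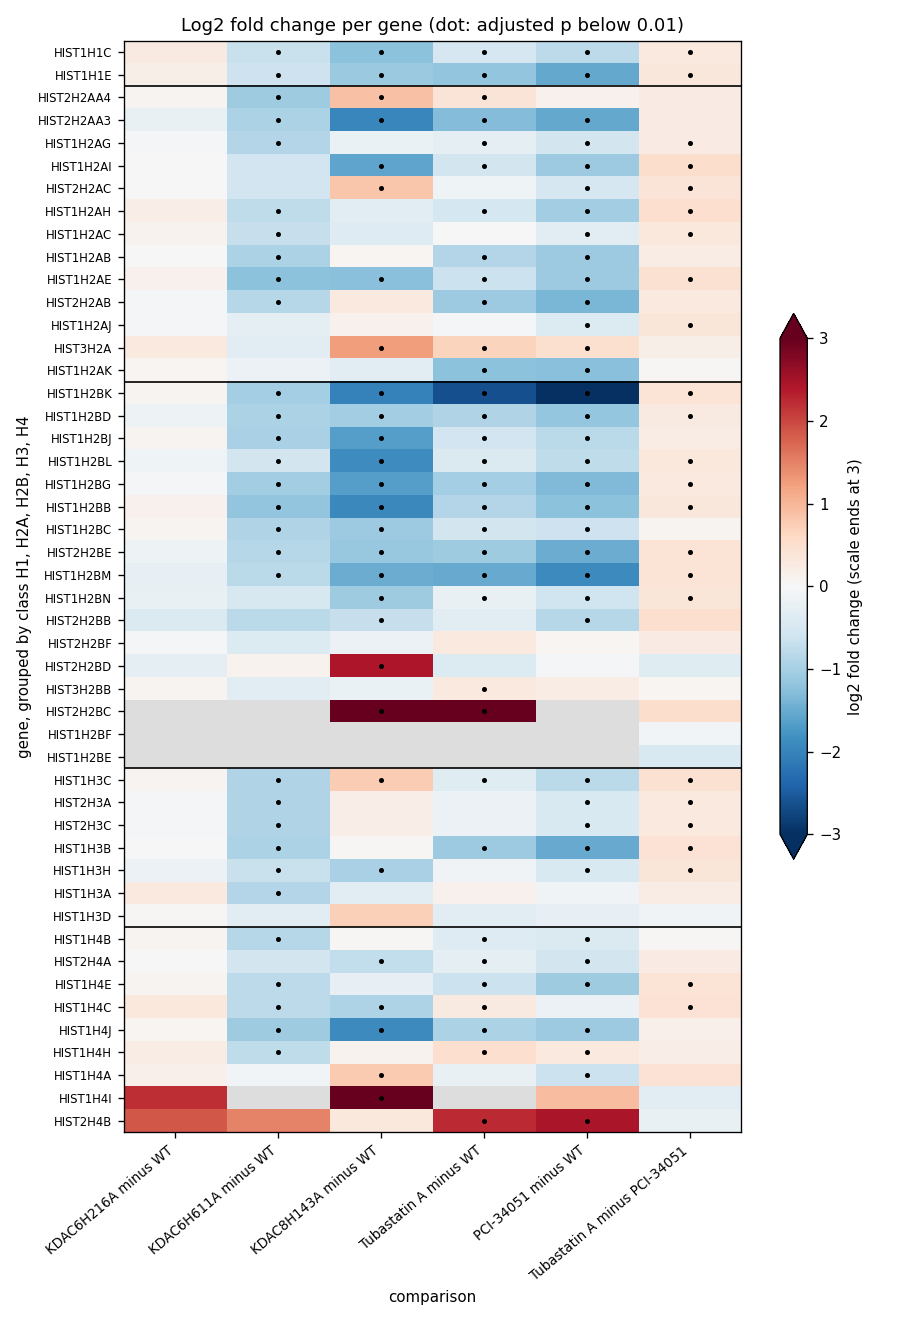
Log2 fold change (colour, scale ending at 3) of each histone gene tested (rows, grouped by class) in 6 comparisons (columns); a dot marks an adjusted p below 0.01 and grey a gene not tested. The KDAC6H611A column is lower for 42 of 44 genes, the KDAC8H143A column has 20 dots on lower and 8 on higher values, and the Tubastatin A minus PCI-34051 column has 24 dots, all on higher values.

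The divergent pairs let an H2B gene be read against the H2A gene that starts from the same stretch of DNA in the same library, a ratio that scaling does not touch. In 9 pairs both genes code for protein and average 1 CPM or more. The ratio of CPM is not per length, so only its difference from WT is read, and no test was run on it. In KDAC6H611A no pair separated from WT, and the median difference of the log2 ratio was −0.09. KDAC6H216A lay above WT for HIST1H2BJ over HIST1H2AG and overlapped for the other 8 (median −0.18). In KDAC8H143A the H2B share was lower in all 9 pairs, in 8 without overlap with WT, with differences from −1.96 to −0.31 and a median of −1.47. For single genes, 64.8% of all genes tested did not overlap between these groups (33.1% higher and 31.7% lower in KDAC8H143A).

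With the inhibitors, the H2B share was lower in 6 pairs without overlap for each compound, and higher in 1 pair with Tubastatin A and 2 with PCI-34051 (for single genes, 63.9% of all genes tested did not overlap WT with Tubastatin A, 39.9% higher and 24.1% lower, and 59.0% with PCI-34051, 36.2% higher and 22.9% lower). The log2 ratio of HIST1H2BK over HIST1H2AH was 1.67 to 1.75 in WT, 1.51 to 1.67 in KDAC6H216A and 1.19 to 1.78 in KDAC6H611A. It was −0.13 to 0.34 in KDAC8H143A, and −0.42 to −0.40 and −0.60 to −0.15 under Tubastatin A and PCI-34051, far below WT in these 3 groups. HIST1H2BJ over HIST1H2AG, whose shared stretch is 79.8% identical to that pair's, moved by −0.29 and −0.26 with Tubastatin A and PCI-34051 and by −1.50 in KDAC8H143A. HIST2H2BE over HIST2H2AC moved by −0.97 and −0.98 with the inhibitors and by −1.96 in KDAC8H143A. HIST1H2BL over HIST1H2AI moved by 0.12 and 0.33 with the inhibitors and by −0.31 in KDAC8H143A, and HIST3H2BB over HIST3H2A by −0.39, −0.27 and −1.47. HIST1H2BN over HIST1H2AK rose by 1.03 and 0.66 with the inhibitors and moved by −0.79 in KDAC8H143A. The octamer letters were not found in the stretches of these last 3 pairs, and their differences in KDAC8H143A ran from −1.47 to −0.31.

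**Figure D5:**
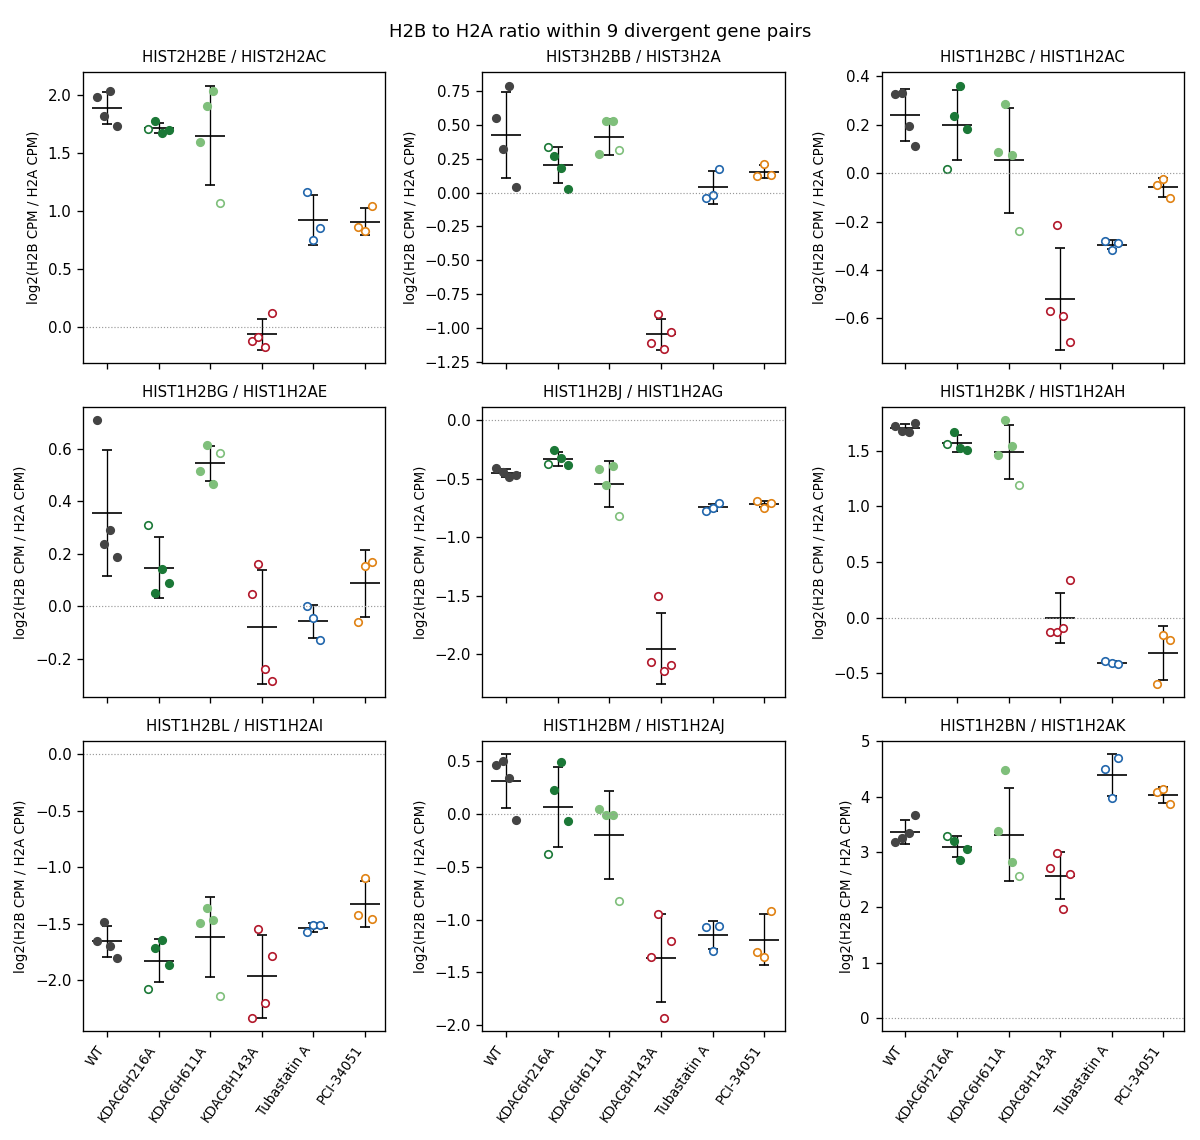
Log2 ratio of H2B CPM to H2A CPM in 9 divergent pairs (panels; y axes differ), 1 point per library with the group mean and SD; open points are libraries in which mitochondrial rRNA took under 1% of counts. KDAC8H143A lies below WT in 8 panels without overlap, and HIST1H2BK over HIST1H2AH is 1.67 to 1.75 in WT and −0.42 to −0.40 with Tubastatin A.

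H2A members have a higher median GC content than H2B members (58.6% against 54.8%). KDAC6H611A replicate 4 had the lowest H2B to H2A ratio of its group in 7 of 9 pairs, and KDAC6H216A replicates 1 and 4 did in 3 of 9 each. The part of GC content and of mitochondrial rRNA in the pair ratios was not tested.

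Members with a spliced transcript and those annotated as a single exon gave different counts of calls. In KDAC6H611A 25 of 33 single-exon members and 5 of 11 with a spliced transcript fell, where 6.24% of all genes were called lower. With PCI-34051, 28 of 34 single-exon members fell and none rose, while 6 of 11 with a spliced transcript fell and 3 rose, where 25.6% of all genes were called lower and 25.5% higher. With Tubastatin A these counts were 21 lower and 3 higher of 34, and 5 lower and 4 higher of 11, where 28.6% of all genes were called lower and 29.3% higher. With the correction for GC content and length, the single-exon counts became 11 lower and 8 higher of 34 with PCI-34051 and 5 lower and 18 higher of 34 with Tubastatin A, while those with a spliced transcript became 6 lower and 3 higher of 11 with PCI-34051 and 3 lower and 4 higher with Tubastatin A. Of all genes, this correction called 4217 lower and 3681 higher of 15346 with PCI-34051, and 4570 lower and 4129 higher of 15246 with Tubastatin A. The difference between these kinds of member was not tested.

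Genes that make and process histone mRNA were read from a list of 24 factors. RNU7-1, the RNA of the U7 snRNP, was listed at 0 in all groups, and 23 were tested. None passed in KDAC6H216A, in KDAC6H611A or between the inhibitors. SLBP, which binds the stem-loop, averaged 39.1 CPM in WT, 37.7 in KDAC6H611A and 31.9 in KDAC8H143A, and rose with Tubastatin A (0.22 ± 0.07 on the log2 scale). NPAT averaged 46.1 CPM in WT, 38.9 in KDAC6H611A and 27.8 in KDAC8H143A, where its difference of −0.68 ± 0.22 did not pass (edgeR adjusted p = 0.0145). In KDAC8H143A 9 of 23 factors fell and 4 rose, where 58.5% of all genes were called (26.9% lower and 31.6% higher). ERI1, an exonuclease that trims histone mRNA ends (−1.32), and CASP8AP2, a protein of histone locus bodies (−1.09), fell, and HINFP, an activator of H4 genes, rose (0.54). With Tubastatin A 11 of 23 fell and 3 rose, where 57.9% of all genes were called (28.6% lower and 29.3% higher). With PCI-34051 12 fell and 2 rose, where 51.1% were (25.6% lower and 25.5% higher). LSM10, a protein of the U7 snRNP ring, rose with both, by 0.71 and 0.51.

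Replication-independent histone genes are expressed outside S phase as well, and their difference from the members was not tested. In KDAC6H611A 10 of the 11 listed were tested and H2AZ2 fell (−0.73), while H2AZ1 (−0.56), H2AX (−0.61) and CENPA (−0.53) did not pass (median of the list −0.35, 1 lower and 0 higher). In KDAC8H143A 3 of 11 rose and 3 fell, with Tubastatin A 4 rose and 1 fell and with PCI-34051 5 rose and 2 fell, beside 58.5%, 57.9% and 51.1% of all genes called. In KDAC8H143A H2AX (1.12) and MACROH2A2 (1.76) rose, and H2AZ2 (−1.65), H3-3A (−0.85) and H2AZ1 (−0.79) fell. H2AX, whose mRNA can also end in a stem-loop, was among the 3 other genes with the pattern. With both inhibitors H1-10 and H3-3A rose, by 0.97 and 0.84 with Tubastatin A and 0.86 and 0.83 with PCI-34051. Between the inhibitors H2AZ1 (0.43), CENPA (0.42) and H3-3B (0.23) were higher with Tubastatin A.

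Histone chaperones and S-phase genes gave the wider setting, and those named here were picked after their values were seen. Among 16 chaperone genes, HAT1, which acetylates new H4, fell in KDAC6H611A (−0.71) and no other passed. In KDAC8H143A 5 rose and 7 fell, from ASF1A at −2.32 to CHAF1A at 1.05, and with each inhibitor 9 fell and ATRX and NAP1L1 rose. Of 37 S-phase genes, none passed in KDAC6H216A, 23 fell in KDAC8H143A while UHRF1 and CDCA7 rose (median −0.60), 29 fell with Tubastatin A while CDCA7 rose (median −0.40) and 31 fell with PCI-34051 (median −0.51). Between the inhibitors TYMS, RRM1 and RRM2 were higher with Tubastatin A and none lower (median 0.12). Of 20 other coding genes that lie among the HIST1 members, 12 were tested in KDAC6H611A against WT and none passed (median 0.11), and 7 rose and ABT1 fell of 13 with Tubastatin A. These counts stand beside the same shares of all genes called, 58.5% for KDAC8H143A, 57.9% for Tubastatin A and 51.1% for PCI-34051. By direction, 26.9% of all genes were called lower and 31.6% higher in KDAC8H143A. The shares lower and higher were 28.6% and 29.3% with Tubastatin A, and 25.6% and 25.5% with PCI-34051. Fewer cells in S phase and less histone mRNA in each such cell cannot be told apart in these groups either.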

How the data were processed

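Ribosomal RNA was depleted from total RNA of HT1080 cells and 22 libraries were sequenced. The authors trimmed reads with Trimmomatic 0.39, aligned them with Bowtie2 2.4.5 and quantified genes with RSEM 1.3.3 on GRCh38; the annotation release is not given in the sources used here. The deposited table holds the authors' expected counts (estimated reads per gene, not normalized), in which RSEM divides reads shared by near-identical genes.

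Expected counts were rounded to whole numbers. Each pair of groups was fitted with edgeR 4.0.16 in R 4.3.3 (TMM scaling, filterByExpr by group, quasi-likelihood test), and p-values were adjusted by Benjamini-Hochberg over all genes tested, at 0.01. The code was tested on simulated data. The study's methods call the libraries biological replicates without saying how the cultures were separated, and the p-values measure the spread between these libraries. The members and lists were chosen with earlier results of these data known. Alternatives were DESeq2 1.42.0, total count scaling, other filters, a replicate block, a fit over all 6 groups, summed copies, each library left out, and a correction for GC content and length (a smooth per library, mgcv 1.9.3, as offsets). Figures were drawn with matplotlib 3.10.9.

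Genes were named if they had the 3 highest mean CPM per kb of their class, were among the up to 3 called members with the largest rise or fall in a comparison (provided the group with more RNA averaged 1 CPM or over), lay outside HIST1 with a mean of at least 1 CPM, or were fixed factors or replication-independent histones, 1 of which is not reported here. Other genes were named after their values were seen, for completeness of a count, a ranking, a pair or a copy. Gene lengths, GC content, overlaps and stem-loops were read from the GRCh38 annotation, and promoter windows from RefSeq.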

Additional observations from a re-analysis of the deposited data

Results flagged for a closer look

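A library was picked out where its gap to the nearest other library of its group of 4, divided by the range of the group, passed Dixon's 95% critical value for groups of 4. Of 172 tests on named genes and class sums, 22 passed, and chance alone would pick about 1 group in 20. KDAC6H216A replicate 1, in which mitochondrial rRNA took 0.195% of counts, accounted for 11 of the 22 and was low in all of them: the sum of H1 (786 CPM against 1106 to 1135 CPM in the other 3), the sum of HIST1 (2682 CPM against 4151 to 4410 CPM in the other 3), HIST1H1C (361 CPM against 524 to 540.5 CPM in the other 3), HIST1H1E (425 CPM against 582 to 594 CPM in the other 3), HIST1H2AE (31.8 CPM against 61.6 to 65.9 CPM in the other 3), HIST1H2BB (41.8 CPM against 66 to 70.7 CPM in the other 3), HIST1H2BD (122 CPM against 203 to 215 CPM in the other 3), HIST1H2BK (124 CPM against 209.7 to 219 CPM in the other 3), HIST1H3C (164 CPM against 221 to 226 CPM in the other 3), HIST1H4E (68 CPM against 106 to 111 CPM in the other 3) and HIST2H4A (213 CPM against 406 to 444 CPM in the other 3). WT replicate 1 was low in the sum of H1 (733 CPM against 862 to 869.7 CPM in the other 3), the sum of H2A (1053 CPM against 1359 to 1399 CPM in the other 3), HIST1H1C (329 CPM against 393 to 405 CPM in the other 3), HIST1H1E (404 CPM against 464 to 469 CPM in the other 3) and HIST1H2BD (163 CPM against 202 to 209 CPM in the other 3). KDAC8H143A replicate 4 was low in HIST1H3A (6.11 CPM against 11.7 to 12.6 CPM in the other 3) and HIST1H4I (3.18 CPM against 6.75 to 7.42 CPM in the other 3). KDAC8H143A replicate 2 was high in HIST3H2BB (23.1 CPM against 19.5 to 20.1 CPM in the other 3). KDAC6H611A replicate 2 was low in HIST3H2A (9.73 CPM against 15.9 to 16.6 CPM in the other 3). Near the detection limit, HIST1H1T stood at 0.0905 CPM in KDAC6H611A replicate 3 and was listed at 0 in the other 3 libraries of that group, and HIST2H2BC stood at 0.542 CPM in WT replicate 3 and was listed at 0 in the other 3 WT libraries.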

How the results depend on the processing

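Of 3991 values of named members and classes under an alternative, 3524 kept their direction and their side of the threshold, 264 lost the call, 116 gained it, 17 moved by more than the spread between replicates and 70 changed sign. The cause of these changes was not tested. In KDAC6H216A minus WT, 1 member was called by DESeq2, with no filter, with the GC and length correction and in the fit over all 6 groups. Total count scaling called 8 in KDAC6H611A minus WT and 10 in KDAC6H611A minus KDAC6H216A, beside 913 of 14725 and 781 of 14961 genes. The fit over all 6 groups called 14 for Tubastatin A minus WT, where the median was −0.25, 22 for PCI-34051 minus WT and 0 for Tubastatin A minus PCI-34051. Of all 18480 genes, that fit called 4607, 4341 and 7 in these comparisons. Total count scaling moved the median to −0.012 for KDAC8H143A, −0.038 for Tubastatin A and −0.27 for PCI-34051, and the log2 ratio of all summed CPM to WT to −0.20, −0.14 and −0.40. With no filter the PCI-34051 median was −0.48. The GC and length correction, and the same correction with the replicate block, gave medians of −0.98 and −0.98 for KDAC8H143A, 0.36 and 0.31 for Tubastatin A and 0.018 and −0.004 for PCI-34051, and 0.38 and 0.38 for Tubastatin A minus PCI-34051. In that order these corrections turned the sign for KDAC8H143A minus WT of HIST1H3C at −0.17 and −0.15, HIST1H4B at −0.62 and −0.62, HIST2H2AA4 at −0.29 and −0.35, HIST2H2AB at −0.68 and −0.68, HIST2H2AC at −0.11 and −0.14, HIST2H3A at −1.23 and −1.28 and HIST2H3C at −1.25 and −1.29. In that order these corrections turned the sign for Tubastatin A minus WT of HIST1H1C at 0.092 and 0.096, HIST1H2AE at 0.23 and 0.25, HIST1H2AG at 0.62 and 0.61, HIST1H2AH at 0.44 and 0.42, HIST1H2AI at 0.36 and 0.39, HIST1H2BB at 0.057 and 0.027, HIST1H3C at 0.57 and 0.59, HIST1H4B at 0.74 and 0.72, HIST1H4E at 0.41 and 0.40, HIST1H4J at 0.15 and 0.14, HIST2H2AC at 0.79 and 0.85, HIST2H2BB at 0.77 and 0.67, HIST2H3A at 0.56 and 0.56 and HIST2H3C at 0.55 and 0.54. In that order these corrections turned the sign for PCI-34051 minus WT of HIST1H2AG at 0.34 and 0.33, HIST1H3A at 0.77 and 0.74, HIST1H3C at 0.12 and 0.13, HIST1H4B at 0.75 and 0.71, HIST1H4E at 0.039 and 0.027, HIST1H4J at 0.018 with the correction alone, HIST2H2AC at 0.40 and 0.43, HIST2H2BB at 0.28 and 0.20, HIST2H3A at 0.24 and 0.22 and HIST2H3C at 0.23 and 0.21. Total count scaling turned the sign for Tubastatin A minus WT of HIST1H2AG at 0.066, HIST2H2AC at 0.23 and HIST2H4A at 0.052. It also turned the log2 ratio of summed CPM to WT to 0.097 for H2A in KDAC8H143A, 0.033 for H2A with Tubastatin A, 0.0077 for H3 with Tubastatin A, 0.14 for H4 with Tubastatin A, 0.13 for HIST2 in KDAC8H143A and 0.014 for HIST2 with Tubastatin A. Leaving out each replicate in turn gave 0 to 11 calls and medians of −0.046 to 0.14 for KDAC6H216A minus WT, 19 to 33 calls and medians of −0.87 to −0.68 for KDAC6H611A minus WT, 26 to 31 calls and medians of −0.52 to −0.25 for KDAC8H143A minus WT, 30 to 34 calls and medians of −0.44 to −0.31 for Tubastatin A minus WT, 36 to 39 calls and medians of −0.68 to −0.56 for PCI-34051 minus WT, 14 to 25 calls and medians of 0.27 to 0.33 for Tubastatin A minus PCI-34051 and 7 to 34 calls and medians of −0.97 to −0.79 for KDAC6H611A minus KDAC6H216A. These leave-one-out counts are not set here beside calls over all genes and are not read as a result about the members. Replicate numbers did not pair the libraries: correlations of their deviations from the group means ran from −0.185 to 0.301 and not every pair was over 0.1. With the replicate block the calls numbered 0 in KDAC6H216A minus WT, 29 in KDAC6H611A minus WT, 27 in KDAC8H143A minus WT, 31 in Tubastatin A minus WT, 37 in PCI-34051 minus WT, 20 in Tubastatin A minus PCI-34051 and 19 in KDAC6H611A minus KDAC6H216A. In the same order it called 66 of all 14500 genes, 1559 of 14725, 9194 of 16101, 7711 of 15246, 7134 of 15346, 766 of 18409 and 930 of 14961. No change could be detected for the 21 members with at most 3 counts, and why they had so few reads was not tested. The split of reads among near-identical copies limits single values of HIST2 genes.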
